A study of Drosophila melanogaster with 30 samples.

Results

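The regions described here are 2235 GATC fragments of the Drosophila melanogaster genome, out of 383654, at which the signal of the transcription factor CrebB lay clearly below that of the control in naive flies (0.583% of all fragments). A GATC fragment is the stretch between neighbouring GATC sites, and its value is a log2 ratio, with Dam::CrebB methylation over that of Dam-only. A fragment was taken when its log2 ratio was -0.7 or less in each of the 3 naive profiles and below 2 in replicate 3 of paired TI-1. The members were thus chosen by their log2 ratios in the 3 naive profiles and in that paired TI-1 profile, and these values are given as a description. Tests are given without these profiles, except for planned fits with that paired TI-1 profile, which are counted only among the alternatives at the end. The members are called low fragments below.

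The profiles come from Targeted DamID (TaDa) on heads of adult flies, in 30 samples of 50 to 100 heads each. Flies carrying UAS-Dam::CrebB or UAS-Dam were crossed to tubGal80ts; mb247-Gal4, so that all groups share the driver and the repressor, and the methylase was expressed in Mushroom Body (MB) cells after a shift to 29°C. The groups were paired flies, which received odor together with sucrose, unpaired flies, which received both apart in time, and naive flies, which were not trained. Paired and unpaired flies were profiled at TI-1, from 3 h before to 24 h after training, and at TI-2, from 24 h to 48 h after it, while the labels give no interval for the naive flies. Each of the 5 groups had 3 replicates, each with its own Dam-only sample. The driver limits the methylase to cells with mb247 activity, and no value here measures expression in other cells of the head.

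CrebB is the fly homologue of CREB, a leucine zipper factor that binds CRE sequences and is needed for long-term memory. In DamID a fused methylase marks GATC sites close to where the factor sits, whereas unfused Dam marks DNA according to how open the chromatin is. A log2 ratio below 0 therefore means that a fragment was marked relatively more by Dam-only than by Dam::CrebB, which is not the same as a measured loss of CrebB. No DNA sequence of the fragments was at hand for this work, so none is shown.

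Both limits of the selection fell within a continuous range of values. In the 3 naive profiles, 3259 fragments lay at -0.7 or less, and 1024 of them (31.4%) were left out because they reached 2 or more in paired TI-1 replicate 3, where their median was 3.64. The 3 retained fragments nearest the naive limit had a highest naive value between -0.700442 and -0.700039, and the 3 nearest fragments outside it lay between -0.699962 and -0.699742. On the other border, the 3 highest retained values in paired TI-1 replicate 3 were 1.9903 to 1.9967, against 2.0014 to 2.0168 for the 3 lowest of those left out. Without naive replicate 1, the rule would have taken 5303 fragments in place of 2235. The median of the low fragments in naive replicates 1, 2 and 3 was -0.90, -1.28 and -1.02, with lowest values of -2.44, -3.05 and -2.32. By contrast, the median of all fragments was 0.00 in each naive profile.

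One profile stands apart in this series, and it is one that the choice of members used. Across fragments, which are not independent, the Pearson's r of paired TI-1 replicate 3 with the other profiles lay between -0.21 and 0.60, and r among the other 14 profiles between 0.37 and 0.94. Exact zeros made up 12.4% to 21.6% of the values of each profile, but 0 of the low fragments had such a value in any profile. The profiles hold no read counts, so the depth behind each ratio is unknown and the precision rests on the 3 replicates. The replicates are described as biological with no further detail, and p-values measure the spread between them.

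The low fragments were also low in most trained profiles. In unpaired TI-1 replicates 1, 2 and 3 their median log2 ratio was -0.70, -0.79 and -0.50, and in paired TI-1 it was -0.88, -0.65 and -0.15. In unpaired TI-2 it was -0.76, -0.82 and -0.18, and in paired TI-2 it was -0.65, -0.90 and -1.15. Thus 10 of the 12 trained medians lay between -1.15 and -0.50, and the 2 nearest to 0 came from paired TI-1 replicate 3 and unpaired TI-2 replicate 3. The spread among the low fragments was also wider in paired TI-1 replicate 3 (SD 0.81) than in the other trained profiles (SD 0.23 to 0.43). In that profile 785 low fragments lay above 0.2, against 68 or fewer in each of the other trained profiles, although the rule had already removed the values of 2 or more there. All fragments were spread wider there too (SD 0.99, against 0.32 to 0.80 in the other trained profiles). The median of the tested fragments was 0.10 and their upper quartile 0.82, so high values there were not particular to the low fragments.

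**Figure D1:**
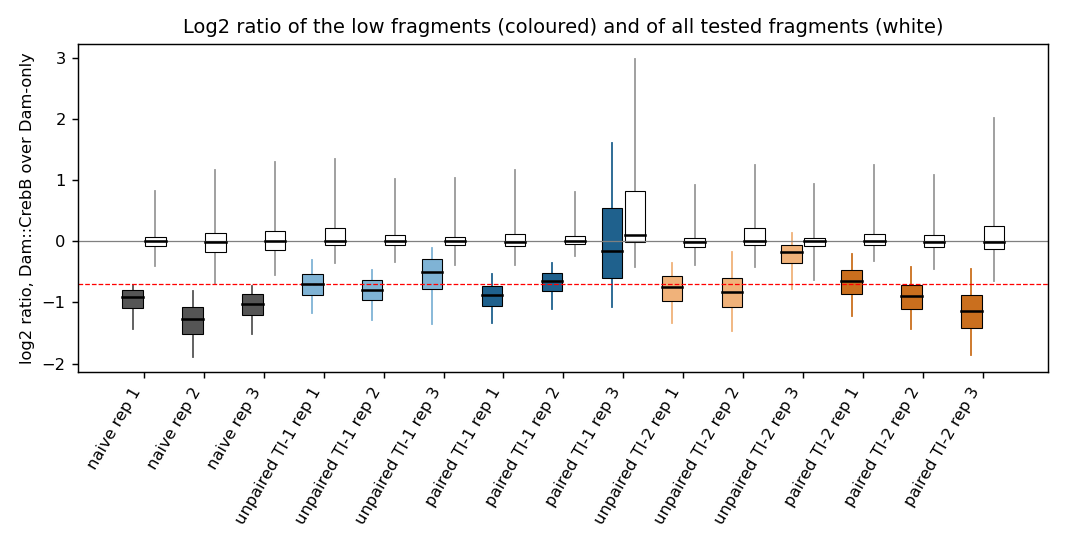
Log2 ratio (Dam::CrebB against Dam-only, y axis) of the 2235 low fragments (coloured boxes) and of the 344531 tested fragments (white boxes) in each of the 15 profiles (x axis). Boxes span the quartiles with the median as a black line, lines reach from the 5th to the 95th percentile, and the red dashed line marks -0.7; the coloured medians lie between -1.28 and -0.50 except in paired TI-1 replicate 3 (-0.15) and unpaired TI-2 replicate 3 (-0.18).

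Counted per group, 2199 low fragments (98.4%) were below 0 in all 3 unpaired TI-1 profiles, against 31.7% of the tested fragments. For unpaired TI-2 the count was 1874 (83.8%, against 23.5%) and for paired TI-2 it was 2187 (97.9%, against 28.2%). In paired TI-1 it was 1288 (57.6%, against 14%), but nothing is read from this count, as the rule had used replicate 3 of this group. In paired TI-1 replicates 1 and 2, which the rule did not use, 2234 of the 2235 were below 0 in both profiles, against 44.7%. Values of -0.7 or less in every profile of a group were rarer. They were found in 408 low fragments (18.3%) in unpaired TI-1, against 0.292% of the tested fragments. In unpaired TI-2 this held for 100 (4.47%, against 0.187%), in paired TI-1 replicates 1 and 2 for 905 (40.5%, against 0.371%) and in paired TI-2 for 802 (35.9%, against 0.363%). Among the 12 trained profiles, 1028 low fragments (46%) were below 0 in each one, against 4.05% of the tested fragments, and 1041 were below 0 in 11 of them, again with the profile that the rule used among the 12. Without paired TI-1 replicate 3, 1842 (82.4%) were below 0 in all 11 profiles, against 12.5%. At -0.7 or less in these 11 profiles lay 56 (2.51%, against 0.0253%), of which 13 were within 5 Mb of the centromere end of an arm, 1 on chromosome 4 and 2 on X.

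The mean of each trained group was tested against 0 with limma over 344531 fragments, of which all 2235 low fragments were part. For paired TI-1 only replicates 1 and 2 were taken, as the rule had used replicate 3. With p adjusted by Benjamini-Hochberg, under 0.01, and a mean of -0.2 or less, limma called 0 low fragments in each of the 4 groups, and 0% of the tested fragments. When the unadjusted p was under 0.05 at that size, limma gave 1899 low fragments (85%) in unpaired TI-1, against 7.02% of the tested fragments. In unpaired TI-2 it gave 849 (38%, against 3.81%), in the 2 profiles of paired TI-1 1929 (86.3%, against 5.43%), and in paired TI-2 1900 (85%, against 6.64%). Their smallest adjusted p from limma was 0.0404 in unpaired TI-1, 0.0759 in unpaired TI-2, 0.101 in paired TI-1 and 0.0619 in paired TI-2. At an adjusted p under 0.05, limma called 130 low fragments (5.82%) in unpaired TI-1, against 0.297% of the tested fragments.

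These counts moved with the replicates used, and so did the shares of all tested fragments. In unpaired TI-2 the count at the unadjusted p was 1521 (68.1%, against 5.88%) without replicate 3, 267 (11.9%, against 2.17%) without replicate 1 and 333 (14.9%, against 2.25%) without replicate 2. In unpaired TI-1 it was 1000 (44.7%, against 3.93%) without replicate 1 and 1105 (49.4%, against 4.26%) without replicate 2. In paired TI-2 it was 888 (39.7%, against 2.91%) without replicate 2. The median of the group means over the low fragments moved from -0.60 to -0.80 in unpaired TI-2 when replicate 3 was left out, and in paired TI-1 from -0.54 to -0.77.

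As no single group of 3 passed, the 6 unpaired profiles of both intervals were also fitted as 1 group, a choice made after the data had been seen. With limma, 836 low fragments (37.4%) were then called lower than 0 at the adjusted p under 0.01, against 2.34% of the tested fragments, and 2173 (97.2%) at the unadjusted p under 0.05, against 9.07%. When unpaired TI-2 replicate 3 was left out of this fit, limma called 1059 low fragments (47.4%), against 2.33%. The median of their means over the 6 profiles was -0.64. At -0.7 or less in all 6 unpaired profiles lay 84 low fragments (3.76%, against 0.0949% of the tested fragments). These 84 made up 25.7% of the 327 fragments that were so low in all 6.

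The order of the low fragments by depth was partly kept. Across the 2235 low fragments, the naive mean had a Pearson's r of 0.72 with paired TI-1 replicate 1 and of 0.71 with unpaired TI-1 replicate 2, which share no Dam-only sample with the naive flies. It was 0.29 with unpaired TI-2 replicate 3 and 0.01 with paired TI-1 replicate 3. These values describe fragments that were cut at a limit in the naive profiles, and neighbouring fragments share reads.

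Length was a feature that the rule did not use. The low fragments had a median length of 378 bp (quartiles 311 and 450), whereas all fragments had a median of 197 bp (quartiles 71 and 462). Of the low fragments, 1301 (58.2%) were from 300 to under 500 bp long, against 14.9% of all fragments. Among fragments of 300 to 400 bp, 2.47% were low fragments, and among those of 400 to 500 bp 2.02% were. The share was 0.0666% at 100 to 200 bp, 0.139% at 200 to 300 bp and 0.159% at 1000 to 2000 bp. The fragments left out through paired TI-1 replicate 3 had a median length of 368 bp, so a similar length was not particular to the fragments that were retained. Another group of 403 low fragments was shorter than 100 bp. Of these, 357 (88.6%) lay directly beside another low fragment, and 66 had the same 15 values as a neighbour to 6 decimals, so they are not independent of their neighbours. In total the low fragments covered 848 kb.

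The place of the low fragments in the genome was uneven. Chromosome 4, a small chromosome that is mostly packed as heterochromatin, held 137 low fragments, which is 3.81% of its 3593 fragments. The X chromosome held 119 (0.177% of 67357) and the Y chromosome 1 (0.0101% of 9944). On the long autosomal arms the share was 0.724% on 2L, 0.696% on 2R and 3L, and 0.53% on 3R. Within 5 Mb of the centromere end of these 4 arms, 544 of 60316 fragments (0.902%) were low fragments, against 1434 of 242444 (0.591%) farther out. The rise toward the centromere was found on 2L, 2R and 3L, with shares of 0.906%, 1.1% and 1.13% in those 5 Mb, but not on 3R (0.474%). When only fragments of 300 to 500 bp were counted, the share was 9.67% on chromosome 4, 3.22% near the centromeres, 2.36% in the rest of the arms and 0.889% on X. The order of these places was thus the same within a narrow range of length. How the depth of the signal varied by place differed among profiles. In unpaired TI-1 replicate 2 the median of the low fragments was -0.77 in the rest of the arms, -0.81 near the centromeres, -0.85 on chromosome 4 and -0.77 on X. In the same order it was -0.54, -0.44, -0.34 and -0.38 in unpaired TI-1 replicate 3, and -1.14, -1.18, -1.30 and -0.97 in paired TI-2 replicate 3. In paired TI-1 replicate 3 it was 0.00, -0.36, -0.65 and -0.12.

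**Figure D2:**
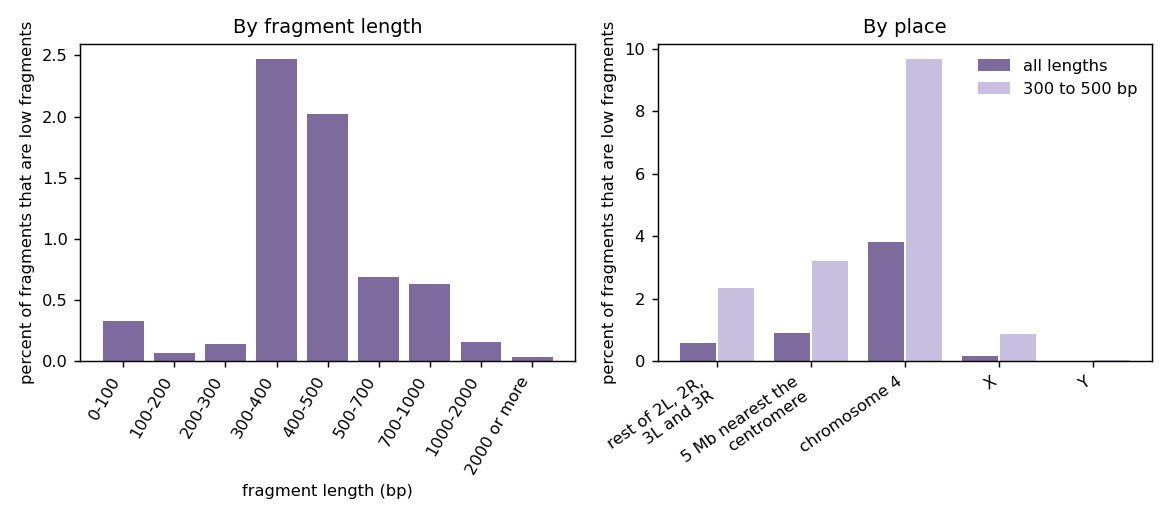
Percent of GATC fragments that are low fragments (y axes) by fragment length in bp (left) and by place (right), where dark bars count all lengths and light bars only fragments of 300 to 500 bp. The share peaks at 2.47% for 300 to 400 bp, and on chromosome 4 it is 3.81% of all fragments and 9.67% of those of 300 to 500 bp.

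The low fragments had graded flanks. They formed 1698 runs of adjacent fragments, of which 1305 held 1 fragment, 285 held 2, 81 held 3, 19 held 4, 7 held 5 and 1 held 6. The fragments next to a low fragment that were not low themselves had a median naive mean of -0.49 on one side and -0.50 on the other. In unpaired TI-1 the median was -0.27 on both sides, and in paired TI-2 it was -0.39 on both. At a distance of 2 fragments the naive medians were -0.19 and -0.21, and at a distance of 5 fragments they were -0.07 and -0.08. In the 6 unpaired profiles, 71.6% and 69.6% of the direct neighbours were below 0 in every profile, against 18.2% of the tested fragments. As reads are extended in the processing of the authors, adjacent fragments share reads, and how much of the flank comes from this was not tested.

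**Figure D3:**
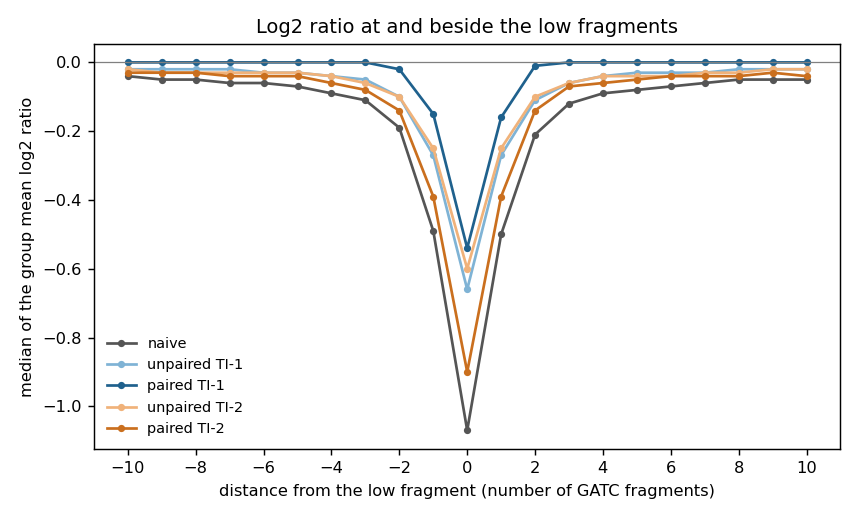
Median over fragments of the group mean log2 ratio (y axis) at the low fragments (0 on the x axis) and at fragments 1 to 10 positions to either side that are not low fragments themselves, with a line per group. In naive flies the median goes from -1.07 at the low fragment to -0.49 and -0.50 at the direct neighbours. The paired TI-1 line stays closest to 0, but it includes replicate 3, which the rule used. Without that replicate its median at the low fragments was -0.77, against -0.66 in unpaired TI-1 and -0.60 in unpaired TI-2.

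The longest run lay in alpha-Cat, which codes for α-catenin, the link between cadherin junctions and actin, and spanned 6 fragments (chr3L:23324634-23326917, release 6). The mean over this run was -1.20, -1.20 and -1.17 in naive flies. In unpaired TI-1 it was -1.06, -0.97 and -0.26, and in paired TI-1 -1.0, -0.79 and -0.81. In unpaired TI-2 it was -0.79, -1.34 and -0.15, and in paired TI-2 -0.97, -0.98 and -1.24. All 15 means of the run were below 0, and the 2 nearest to 0 came from replicate 3 of the unpaired groups. Further runs of 5 fragments lay in eIF4G1, a scaffold of translation initiation, and in PMCA, a pump that exports calcium from the cell, both on chromosome 4. Other runs of 5 lay in Parp1, an enzyme that adds ADP-ribose to chromatin proteins, and in Ir40a, an ionotropic receptor of humidity sensing. The remaining 3 runs of 5, in CG13300, in Hmt-1, an ABC transporter gene, and in Pxd, a peroxidase gene, had means of 0.36, 1.51 and 0.46 in paired TI-1 replicate 3, whereas the other runs of 5 and that of alpha-Cat were below 0 there. In eIF4G1 the run mean was between -1.08 and -0.29 in unpaired TI-2 and between -1.68 and -0.97 in paired TI-2, with overlapping ranges.

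Of the low fragments, 1813 (81.1%) overlapped the body of at least 1 gene, against 75.4% of all fragments and 72.8% of those of 300 to 500 bp. A start or end of a gene lay inside 267 of them (11.9%), against 6.78% of all fragments and 9.43% of those of 300 to 500 bp. The gene table lists neither strand nor exons, so promoters, exons and introns were not told apart. The low fragments fell in 1206 of 17791 genes (6.78%), 1132 of which code for proteins. Of these 1206 genes, 802 held 1 low fragment, 217 held 2 and 187 held 3 or more. Genes with a low fragment were long, with a median of 5887 bp against 1694 bp for all genes, and a long gene has more fragments that could be chosen.

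The 15 genes with the most low fragments held 190 of them, and 13 of these genes lay within 5 Mb of a centromere end, with PMCA on chromosome 4 and dpy farther out on 2L. The first was l(3)80Fg, with 34 of its 594 fragments (5.72%). It was followed by alpha-Cat with 14 of 71 (19.7%), by MFS17, a transporter of the major facilitator family, with 13 of 227, and by l(3)80Fj with 13 of 128 (10.2%). The RNA helicase gene Dbp80, Parp1 and CG41520 held 12 each, of 434, 395 and 379 fragments. The G protein-coupled receptor kinase gene Gprk1, CG17684 and PMCA held 11 each, of 504, 1225 and 84 fragments. The genes uex, for a magnesium transporter, and Snap25, for a SNARE protein of vesicle release, held 10 each, of 116 and 715 fragments. The genes dpy, for a giant matrix protein, Stlk, for a Ste20-like kinase, and Myo81F, for a myosin, held 9 each. These were 9 of 566, 9 of 56 (16.1%) and 9 of 6016 fragments (0.15%). Over all gene bodies the share was 0.627%, so Myo81F lay below it. In l(3)80Fg the low fragments had a mean of -1.05, -1.44 and -1.11 in naive flies, -0.75, -0.90 and -0.68 in unpaired TI-1, and -0.97, -0.65 and -0.09 in paired TI-1. Their mean was -0.72, -0.90 and -0.22 in unpaired TI-2 and -0.69, -0.92 and -1.31 in paired TI-2. The groups overlapped at both intervals. The mean over all 594 fragments of the gene was -0.27 in naive flies and -0.15 in unpaired TI-1.

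In these 15 genes the naive mean over all fragments lay between -0.50 in alpha-Cat and -0.05 in Myo81F. The naive values of their low fragments were at -0.7 or less by the rule, so their distance from the gene mean is not a finding. In PMCA the low fragments had a mean of -0.74, -0.94 and -0.28 in unpaired TI-1, and of -0.92, -0.81 and -0.74 in paired TI-1. In unpaired TI-2 it was -0.96, -0.72 and -0.13, and in paired TI-2 -0.80, -0.93 and -1.20. For uex the means in the same order were -0.93, -0.97 and -0.47, then -0.98, -0.83 and -0.45, then -0.93, -0.96 and -0.18, and last -0.88, -1.15 and -1.05. Both genes were below 0 in every trained profile, and in each unpaired group replicate 3 was the highest value. In dpy, CG41520 and Myo81F, on the other hand, paired TI-1 replicate 3 was above 0, with means of 0.11, 0.03 and 0.01.

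**Figure D4:**
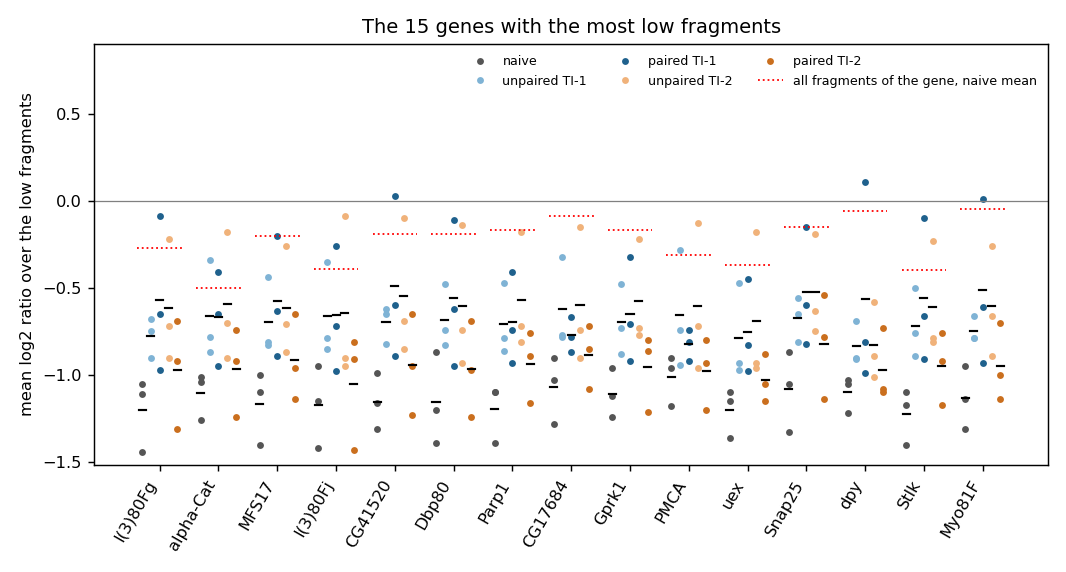
Mean log2 ratio over the low fragments (y axis) of the 15 genes with the most low fragments (x axis), with a point per profile, a colour per group and a black bar for the group mean of 3. The dotted red line is the naive mean over all fragments of the gene, which lies between -0.50 and -0.05 while the rule itself sets the naive points at -0.7 or less.

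Among genes with at least 10 fragments, GluRIIE had the largest share of low fragments, 4 of 12 (33.3%). It codes for a subunit of the glutamate receptors at the neuromuscular junction. Its low fragments had means of -0.74, -0.83 and -0.75 in unpaired TI-1, -0.80, -0.70 and 0.57 in paired TI-1, -0.79, -0.50 and -0.50 in unpaired TI-2, and -0.58, -0.83 and -0.87 in paired TI-2. Only paired TI-1 replicate 3 was above 0. Smyd4-3, of the SET and MYND domain family, CG7509 and S-Lap2, a leucyl aminopeptidase of sperm, each had 4 of 13 (30.8%). CG18480 had 3 of 10 (30%), Ssl2 3 of 11, Hmt-1 5 of 20 (25%), the antisense RNA gene asRNA:CR43957 3 of 12 (25%), l(2)37Cd 3 of 13 and CG13786 3 of 14 (21.4%). In contrast to the genes with the largest counts, 8 of these 10 genes lay in the rest of the arms, 1 near a centromere and 1 on chromosome 4. In S-Lap2 all 4 low fragments were below 0 in each of the 12 trained profiles, with gene means from -1.62 to -0.47. In Hmt-1 the mean ranged from -1.65 to -0.72 in 11 trained profiles and was 1.51 in paired TI-1 replicate 3. The values are given per GATC fragment and not per strand, so those of asRNA:CR43957 cannot be told apart from those of an overlapping gene.

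Of the 2235 low fragments, 3 stayed at -0.7 or less in all 12 trained profiles (0.134%, against 0.000871% of the tested fragments). The 12 include the profile that the rule used. No other tested fragment stayed so low, so both shares count the same 3 fragments. These 3 were named after their values had been seen. The first lay in Spt5 (chr2R:19439353-19439689), for an elongation factor of RNA polymerase, and ranged from -1.62 to -0.74 in the trained profiles. The second was nearest to vtd (chr3L:27163189-27163538), for a cohesin subunit, and ranged from -2.01 to -0.71. The third overlapped an end of CG7530 (chr3R:14724556-14724947) and had the lowest mean over the 6 unpaired profiles, -1.84. Its values were -1.90, -2.14 and -1.65 in unpaired TI-1 and -1.97, -2.45 and -0.94 in unpaired TI-2. The mean over all fragments of CG7530 was 0.54 in naive flies and 0.37 in unpaired TI-1, so this deep fragment belonged to a gene that was above 0 as a whole. The next lowest unpaired means were -1.83 in Cpr78E, a cuticle protein gene, -1.74 in CG4592, -1.60 in dpy and -1.59 in pan, the TCF factor of Wingless signalling. The fragment in CG4592 had -2.09, -1.73 and -1.75 in unpaired TI-1, and -2.41, -1.72 and 1.45 in paired TI-1. In unpaired TI-2 it had -1.41, -1.81 and -1.65, and in paired TI-2 -1.99, -2.38 and -3.00. The groups overlapped at TI-1 but not at TI-2, where the limma adjusted p of the difference was 0.951.

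At the other end, a few low fragments were not low in trained flies. The highest unpaired mean, 0.36, was found at a fragment of 350 bp (chr2L:17172801-17173151) that overlaps both CG34106 and beat-IIIa, an immunoglobulin protein of axon guidance. Its values were -1.24, -1.42 and -0.83 in naive flies, 0.84, -0.53 and -0.23 in unpaired TI-1, and -0.06, -0.54 and -0.76 in paired TI-1. In TI-2 they were -0.53, 1.65 and 0.94 in unpaired and -0.58, 0.79 and -0.12 in paired flies. The values of each trained group but paired TI-1 lay on both sides of 0. The fragment in dve, for a homeodomain factor, had an unpaired mean of 0.13 and was below 0 in 4 of the 12 trained profiles, the fewest of all low fragments. Fragments in fz, the Frizzled receptor of planar polarity, in beat-IIIc and in mbl, for a splicing factor, had unpaired means of 0.12, 0.05 and -0.02. With limma on the 6 unpaired profiles, the adjusted p of these 5 fragments lay between 0.392 and 0.945. Because all low fragments were taken for their naive values, trained and naive flies were not compared by a test.

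Lists of genes with known roles were read for the low fragments they held, and they were drawn up with earlier results of these data known. Over all gene bodies, 1813 of 289232 fragments (0.627%) were low fragments. Of the 14 MB marker genes, only Fas2, an adhesion molecule of the MB lobes, held low fragments, 2 of its 141, and the list as a whole had 2 of 1300 (0.154%). The 10 neuronal markers had 15 of 1515 (0.99%), 10 of which were in Snap25, and 4 of the 10 genes held any. As the profiles hold no expression level, the labelled cell type could not be checked against its markers. In the CREB pathway list 1 of 949 fragments was low (0.105%), in Sik3, a kinase that acts on the CREB coactivator. The 8 activity-regulated genes held 0 of 398, the 10 photoreceptor genes 0 of 293 and the 295 transfer RNA genes 0 of 351. The 9 muscle genes had 8 of 801 (0.999%), with 3 in Mhc, the muscle myosin, and 5 in bt, a titin-like protein gene on chromosome 4. The 9 glial markers had 2 of 267 (0.749%), in wrapper and alrm. The 8 fat body genes had 2 of 170 (1.18%), both in apolpp.

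The shares of the cell surface lists lay on both sides of that of all gene bodies. The 32 dpr and DIP receptor genes, immunoglobulin proteins that pair neurons, had 22 of 3328 (0.661%), with 8 in dpr21 and 5 in DIP-lambda. The 25 adhesion and guidance genes had 15 of 3485 (0.43%), with 4 in Dscam1, which gives many splice forms for self-recognition. The 15 ion channel genes had 12 of 1878 (0.639%), with 3 in Ih, a channel opened by hyperpolarization, and 3 in NaCP60E, a sodium channel relative. The 20 homeotic and patterning genes had 4 of 1242 (0.322%), and the 85 cytosolic ribosomal protein genes 1 of 534 (0.187%), in RpS24. In dpr21 the low fragments had means of -0.77, -0.90 and -0.52 in unpaired TI-1 and -0.99, -0.80 and -0.63 in paired TI-1. In unpaired TI-2 they had -0.76, -1.03 and -0.09, and in paired TI-2 -0.79, -0.88 and -1.38. The dpr21 values of the paired and unpaired groups overlapped at both intervals. These shares are a description, and no test of the lists was run.

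Whether training changed the low fragments was asked by subtracting the unpaired from the paired profile of the same replicate number. At TI-1 the median difference of the low fragments was -0.19, 0.13 and 0.31 in pairs 1, 2 and 3, and the median of the mean differences was 0.09, with 849 of 2235 below 0 (38%, against 39.6% of the tested fragments). At TI-2 it was 0.09, -0.08 and -0.96, and the median of the mean differences was -0.32, with 2037 below 0 (91.1%, against 52.2%). Pair 3 of TI-1 holds the paired profile that the rule used, so its values are a description. The large value of TI-2 came from pair 3. In this pair the unpaired median was the one nearest to 0 in its group (-0.18), and the paired median was the lowest in its group (-1.15). Without replicate 3 the TI-1 median was -0.03 and that of TI-2 was 0.00. The 3 pairs thus did not share a direction at either interval.

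At TI-2, limma on the 3 differences called 0 low fragments higher and 0 lower in paired flies at the adjusted p under 0.01 and a size above 0.2, and 0% of the tested fragments, and the smallest adjusted p among low fragments was 0.951. At an unadjusted p under 0.05, 19 were higher (0.85%, against 0.629%) and 23 lower (1.03%, against 0.459%). Both directions together made 168 low fragments (7.52%, against 3.38%) without replicate 1 and 156 (6.98%, against 2.28%) without replicate 3. The direction differed between these fits, as 160 of the 168 were lower and 118 of the 156 were higher in paired flies. At TI-1 only the differences of replicates 1 and 2 were tested. Limma called 0 low fragments and 0% of the tested fragments at the adjusted p, with a smallest adjusted p of 0.891. At the unadjusted p, 34 were higher (1.52%, against 0.835%) and 19 lower (0.85%, against 2.53%). The paired and unpaired values of TI-2 did not overlap in 177 low fragments with the paired flies lower (7.92%, against 4.22%) and in 8 with the paired flies higher (0.358%, against 2.62%).

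**Figure D5:**
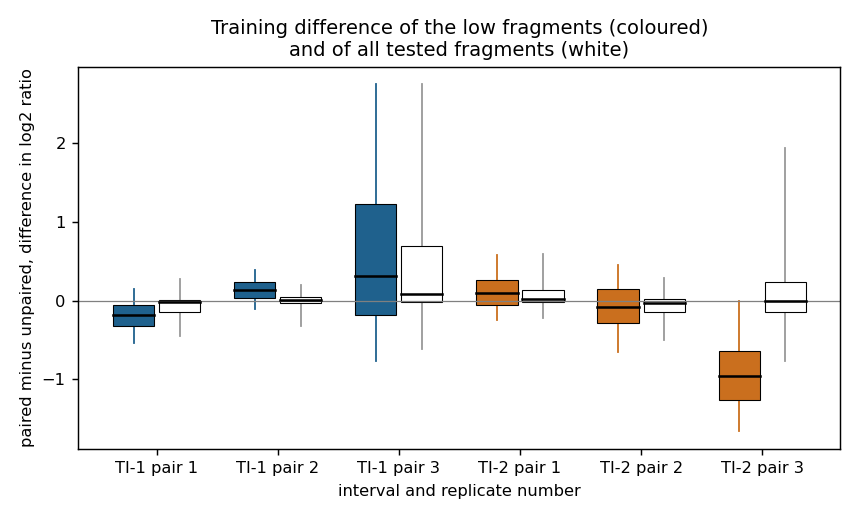
Difference in log2 ratio between the paired and the unpaired profile of the same replicate number (y axis) for the 2235 low fragments (coloured boxes) and all 344531 tested fragments (white boxes), by interval and pair (x axis). Boxes span the quartiles with the median as a black line and lines reach from the 5th to the 95th percentile; the medians of the low fragments are -0.19, 0.13 and 0.31 for the TI-1 pairs, and 0.09, -0.08 and -0.96 for those of TI-2.

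The low fragments with the smallest p over the 3 differences of TI-1, which include the profile that the rule used, are given as a description. They lay in Irp-1B, a homologue of iron regulatory proteins, and in PlexA, a semaphorin receptor. The fragment in Irp-1B (chr3R:10408450-10408949) had -1.0, -1.05 and -0.13 in unpaired and -1.27, -1.35 and -0.46 in paired flies, a mean difference of -0.30. The fragment in PlexA (chr4:1016831-1017142) had -0.91, -0.86 and -0.48 in unpaired and -0.68, -0.63 and -0.27 in paired flies, a mean difference of 0.22. In both genes the values of the groups overlapped. A pair of adjacent fragments of 18 and 42 bp in atms, a subunit of the Paf1 complex, shared all values and had a mean difference of 0.12. The last was an intergenic fragment nearest to CG42580 on X, with 0.13.

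At TI-2 the smallest p belonged to a fragment of 50 bp in CG44102 (chr2R:4903876-4903926), with -0.83, -0.94 and -0.52 in unpaired and -1.18, -1.43 and -0.96 in paired flies. Its mean difference was -0.43 with an SE of 0.04 within replicate numbers (limma adjusted p = 0.951) and of 0.17 without them (limma adjusted p = 0.928), and the groups did not overlap. The fragment in CG7166 had -0.40, -0.56 and -0.60 in unpaired and -0.75, -0.84 and -1.02 in paired flies, a mean difference of -0.35, again with no overlap. Fragments in Ube3a, a ubiquitin ligase, and nearest to Alg-2 had mean differences of -0.21 and -0.22. In Plap, a phospholipase A2 activator homologue, the difference was 0.19, with unpaired values of -0.64, -1.38 and -1.12 and paired values of -0.43, -1.23 and -0.91. None of these passed the adjusted p.

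The training difference of TI-1 was also compared with that of TI-2 in a single limma fit of replicates 1 and 2, as the rule had used a profile of replicate 3. It called 0 low fragments, and 0% of the tested fragments, at the adjusted p under 0.01, and the smallest adjusted p of a low fragment was 1. At the unadjusted p under 0.05, 11 low fragments had the higher difference at TI-1 (0.492%, against 0.516% of the tested fragments) and 66 had the lower (2.95%, against 1.97%). The median of TI-1 minus TI-2 over the low fragments was -0.02.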

How the data were processed

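The authors mapped one read of each pair to release 6 of the Drosophila genome with the damid pipeline, extended the reads, binned the counts, normalized them and added pseudocounts. They deposited 1 profile per replicate that gives a log2 ratio per GATC fragment, Dam::CrebB against Dam-only. The deposited gene lists hold the ratios and FDR values of the authors for transcripts and were not used here.

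From the 15 profiles, fragments with a value other than 0 in some profile (344531 of 383654) were tested by a two-sided limma fit (version 3.58.1, R 4.3.3, with eBayes and Benjamini-Hochberg adjustment over all of them). A call needed an adjusted p under 0.01 and a size above 0.2, the thresholds of the paper. The paper set them for genes, with an FDR drawn from several GATC fragments, so calls per fragment are not comparable with its gene lists. Paired minus unpaired was taken within replicate numbers. Tests that involve paired TI-1 were planned with all 3 replicates and are given without replicate 3, which the rule had used, a change made after the data had been seen. Test counts with that replicate are given only among the alternatives. Gene bodies came from a RefSeq table of release 6 with 17861 genes, and a fragment was assigned to each gene it overlaps. The limma fit of a single group of 3 profiles was also run on simulated data, and no result here rests on that run. The training differences and the fits without replicate 3 were not simulated.

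The members, the gene lists and the tests were chosen with earlier results of these data known. Genes named in the text are the 15 with the most low fragments, the 10 with the largest share among genes of at least 10 fragments, those at the 8 longest runs (7 of them tied at 5 fragments), those at the 5 lowest and 5 highest unpaired means, those at up to 5 members with the smallest p of each training comparison, and listed genes with 3 or more low fragments. Genes with fewer are named where they make up a list, and Spt5, vtd and the genes of opposite training differences fall outside this rule. Alternatives were centring, quantile normalization, an FDR of 0.05, a minimum of 200 bp, fragments other than 0 in every profile, a single fit of the 12 trained profiles, no replicate block, each replicate left out, and other limits for the choice of members.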

Additional observations from a re-analysis of the deposited data

Results flagged for a closer look

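At 6 low fragments the paired value was above the unpaired value in all 3 pairs of TI-1 and below it in all 3 pairs of TI-2 (0.268% of the low fragments, against 0.242% of the tested fragments), and the reverse pattern was found at 0 (0%, against 0.365%). The share of the 6 was close to that of the tested fragments, so nothing is read from their number. The difference between the intervals was not tested for the 6 fragments as a set, and pair 3 of TI-1 includes the paired profile that the rule had used. The 6 fragments lay in ctrip, AOX2, crb and spdi, and nearest to Alg-2 and timeout, and they were named after their values had been seen. In crb, an apical polarity gene, the TI-1 differences were 0.05, 0.02 and 0.61, and those of TI-2 were -0.04, -0.21 and -0.07. In AOX2, an aldehyde oxidase gene, they were 0.08, 0.03 and 1.27, then -0.09, -0.18 and -0.65. The pair of replicate 3 gave the largest difference of TI-1 at 6 of these 6 fragments.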

How the results depend on the processing

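Of the 66 alternatives to the 7 tests at the adjusted p, 59 kept the count of called low fragments at 0, and 7 gave other counts. With an FDR of 0.05, 130 low fragments were below 0 in unpaired TI-1 (5.82%, against 0.297% of the tested fragments). A single fit of the 12 trained profiles called 12 low fragments in unpaired TI-1 and 211 in paired TI-2. Among all 344531 tested fragments it called 24 and 1143 lower. This fit takes its spread from all 12 profiles, with paired TI-1 replicate 3, which the rule used, among them. The 6 unpaired profiles in 1 group called 836 (37.4%, against 2.34%), or 1059 (47.4%, against 2.33%) with unpaired TI-2 replicate 3 left out. These 2 counts stand both for unpaired TI-1 and for unpaired TI-2. The planned tests of paired TI-1, of training at TI-1 and of the difference between intervals include paired TI-1 replicate 3, whose values the rule used, so their counts are no independent evidence. Counts at the unadjusted p under 0.05 moved more. With a replicate left out, unpaired TI-1 below 0 gave 1000 (44.7%, against 3.93% of the tested fragments) to 1946 (87.1%, against 7.28%). For unpaired TI-2 the range was 267 (11.9%, against 2.17%) to 1521 (68.1%, against 5.88%). For paired TI-1 it was 542 (24.3%, against 1.87%) to 1929 (86.3%, against 5.43%). For paired TI-2 it was 888 (39.7%, against 2.91%) to 1525 (68.2%, against 5.93%). The training difference at TI-1 gave 53 (2.37%, against 3.37%) to 127 (5.68%, against 3.02%). That at TI-2 gave 47 (2.1%, against 3%) to 168 (7.52%, against 3.38%). For the difference between intervals the range was 4 (0.179%, against 1.7%) to 141 (6.31%, against 2.49%). For unpaired TI-2 the single fit gave 1496, the 6 unpaired profiles 2173, and 5 of them, with unpaired TI-2 replicate 3 left out, 2194. Of the 344531 tested fragments, these fits gave 9081, 31264 and 32389 below 0. For the training difference at TI-1, quantile normalization gave 153 in place of 16 and fragments other than 0 in every profile 8. Among the tested fragments, the planned fit gave 129 higher and 5375 lower, and these alternatives 1876 and 5618, then 77 and 4762. At TI-2, quantile normalization gave 142 in place of 42 and a minimum of 200 bp 27. The tested fragments gave 2166 higher and 1581 lower as planned, 2819 and 4488 after normalization, and 1236 and 1128 of 173346 from 200 bp. For the difference between intervals, centring gave 3 in place of 5 and quantile normalization 20. The tested fragments gave 169 higher and 2083 lower as planned, 84 and 2791 after centring, and 346 and 448 after quantile normalization. The cause was not tested. Centring subtracted 0.162 from paired TI-1 replicate 3 and less than 0.03 in size from the other profiles.

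Whether the replicate numbers pair the samples was left undecided, because r between the deviations of same-numbered paired and unpaired profiles had no steady sign. Across fragments, TI-1 gave 0.447 for replicate 1, -0.0552 for replicate 2 and 0.375 for replicate 3. TI-2 gave -0.0442, -0.0701 and -0.183 in the same order. Across the low fragments alone, TI-1 gave -0.289, -0.492 and -0.552, with the profile that the rule used among them. For TI-2 the low fragments gave 0.271, 0.0374 and -0.11. With no replicate block, the counts at the unadjusted p were 16 for TI-1 and 83 for TI-2, and 0 at the adjusted p. Among the tested fragments, 104 were higher and 1941 lower at TI-1 at the unadjusted p. At TI-2 these counts were 1508 and 1791, and at the adjusted p they were 0.

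The number of low fragments was 5760 at a limit of -0.5 and 586 at a limit of -1. It ranged from 2347 to 5303 with a naive replicate left out, the highest value without replicate 1. As the depth is unknown, the number of reads behind a low ratio could not be given.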
